A study of Oryza sativa with 4 samples.

Results

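The regions described here are peaks of the rice bZIP proteins OsBZIP69 (also labelled FD4) and OsBZIP77 (also labelled FD1) that lay beside, and not on, a peak of OsBZIP42 (also labelled HBF1). A peak was taken as displaced when the nearest OsBZIP42 centre on its chromosome was 11 to 100 bp away. The rule found 146 of 1107 OsBZIP69 peaks, or 13.2%, and 280 of 2059 OsBZIP77 peaks, or 13.6%, which is 426 of the 3166 peaks in those lists. The lists also held 934 OsBZIP69 and 1705 OsBZIP77 peaks centred 0 to 10 bp from an OsBZIP42 centre, called aligned below, and 27 and 74 peaks with no OsBZIP42 centre within 100 bp. The members were chosen by these distances, measured in the same peak lists, so the distances are a description and carry no test.

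The study used DAP-seq (DNA affinity purification sequencing), in which naked, fragmented genomic DNA is captured by a tagged protein made outside the plant and the retained DNA is sequenced. The groups were HALO-OsBZIP69, HALO-OsBZIP77 and HALO-OsBZIP42 fusions, the last with 28323 peaks, and the negative control HALO-GST, glutathione S-transferase on the same tag, with 194 peaks. All of them were incubated with DNA from leaves of the cultivar nipponbare, and the fusion proteins came from a rabbit reticulocyte expression system. The DNA was naked, so chromatin was not part of the assay, and the labels name no florigen added to it. Each group had 1 library, so no difference between proteins has a replicate check and no p-value is given. Intervals below are exact 95% intervals for the counting of peaks only.

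bZIP proteins hold DNA as dimers: a leucine zipper joins a pair of subunits, and the adjoining basic regions read the bases, in plants most often around an ACGT core. FD-type bZIPs are the DNA-binding part of the florigen activation complex, which joins an FD protein to florigen through a 14-3-3 protein in the shoot apical meristem. OsBZIP77 is known as an activating FD partner of florigen in rice, OsBZIP69 is the FD protein named in the title of the series, and OsBZIP42 is known as a repressor of flowering that also binds florigen. A DAP-seq peak centre is the peak caller's estimate of where the protein sat on the DNA.

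Displaced centres lay close to the OsBZIP42 centre. The median distance was 25 bp for OsBZIP69 (95% interval 22 to 29, n = 146) and 27 bp for OsBZIP77 (25 to 29, n = 280), and the middle 50% of distances ran from 17.2 to 37 bp and from 18.8 to 38 bp. Distances of 11 to 30 bp held 93 OsBZIP69 and 169 OsBZIP77 peaks, or 63.7% and 60.4%. Counts were lower farther out: OsBZIP69 had 49, 44, 27 and 9 peaks at 11 to 20, 21 to 30, 31 to 40 and 41 to 50 bp. OsBZIP77 had 88, 81, 52 and 14 peaks in the same ranges. The largest distance was 89 bp for OsBZIP69 and 95 bp for OsBZIP77, and the next peaks past the limit of the rule are given below.

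No single spacing held a large share of either list. The best filled distances for OsBZIP69 were 12 bp, with 10 peaks, and 13, 16 and 21 bp, with 8 each. For OsBZIP77 they were 21 and 27 bp, with 13 each, and 16 and 19 bp, with 12 each. Distances of 16 and 21 bp were thus among the best filled for both proteins. Beside 21 bp, distances of 20 and 22 bp held 3 and 5 OsBZIP69 peaks, and 6 and 3 OsBZIP77 peaks. Beside 16 bp, distances of 15 and 17 bp held 5 and 2 OsBZIP69 peaks, and 9 and 6 OsBZIP77 peaks. These counts are small, the distances were picked after they were seen, and a preferred spacing was not tested. The fullest 10 bp range held 33.6% (26.0 to 41.8) of the OsBZIP69 members and 31.4% (26.0 to 37.2) of the OsBZIP77 members.

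The distances did leave a thinly filled stretch, clearest for OsBZIP77. At 44 to 50 bp there were 2 OsBZIP69 and 3 OsBZIP77 peaks, against 127 and 232 in the much wider range of 11 to 43 bp. Beyond it OsBZIP77 had 26 peaks at 51 to 60 bp, 9.29% of its members (6.16 to 13.3), of which 9 were at 51 and 52 bp. OsBZIP69 had 6 peaks at 51 to 60 bp and 11 farther out, so its counts stayed low past the stretch. These limits were drawn after the distances had been seen.

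OsBZIP42 centres were spaced differently among themselves. The range of 11 to 30 bp, which held 63.7% of the OsBZIP69 and 60.4% of the OsBZIP77 distances, held 5.12% of the 996 gaps of 11 to 100 bp between neighbouring OsBZIP42 centres, 6 at 11 to 20 bp and 45 at 21 to 30 bp. The median gap was 66 bp (64 to 68). The stretch of 44 to 50 bp, thin for the displaced peaks, held 95 of these gaps. Distances at which OsBZIP69 and OsBZIP77 peaks stood beside OsBZIP42 were therefore mostly ones at which the OsBZIP42 list seldom held 2 centres. The measures are unlike, since gaps lie within a single list and the distances run between separately called lists. How closely the peak caller can place 2 centres in a list was not tested.

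**Figure D1:**
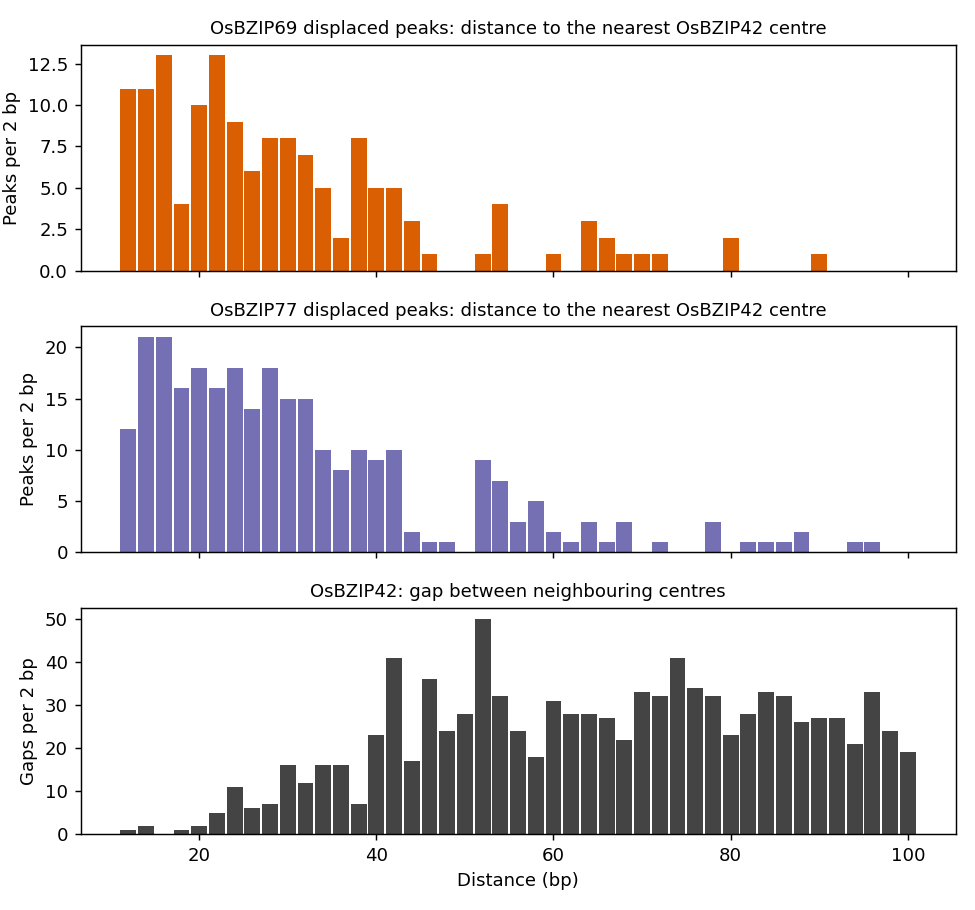
Distance in bp (horizontal) against number per 2 bp (vertical) for the 146 displaced OsBZIP69 peaks, the 280 displaced OsBZIP77 peaks and the 996 gaps between neighbouring OsBZIP42 centres. The displaced peaks crowd between 11 and 43 bp and thin out at 44 to 50 bp, while OsBZIP42 gaps are few below 30 bp.

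The lower limit of the rule fell differently in the lists. Apart from 3 peaks at 3 to 9 bp, OsBZIP69 centres were either within 2 bp of OsBZIP42, at 926 peaks, or at least 10 bp away. OsBZIP77 had 1656 peaks within 2 bp and 41 at 3 to 9 bp. The sparse stretch thus ended just short of the limit of the rule, and 5 OsBZIP69 peaks at 10 bp, counted as aligned, stood next to the 19 members at 11 to 13 bp. For OsBZIP77 a thin run of peaks filled it. Aligned centres rarely met OsBZIP42 at the same base. At OsBZIP69, 0 peaks did, while 866 were 1 bp away, with OsBZIP42 to the right of 433 and to the left of 433. At OsBZIP77, 5 peaks did, while 1593 were 1 bp away, 797 with OsBZIP42 to the right and 796 to the left. The source of this 1 bp shift was not tested. The OsBZIP69 peaks just inside the limit, on chromosome 3 from 12898328 to 12898528 at 11 bp and on chromosome 2 from 20776070 to 20776270 at 12 bp, had signals of 25.6 and 25. Those just outside, on chromosome 1 from 26310769 to 26310969 and on chromosome 5 from 20976860 to 20977060, both at 10 bp, had signals of 18 and 11. For OsBZIP77, peaks at 11 bp on chromosome 3 (4507951 to 4508151) and chromosome 6 (3585411 to 3585611) had signals of 17 and 15.7. Peaks at 10 bp on chromosome 1 (37503612 to 37503812) and chromosome 7 (5576598 to 5576798) had signals of 25 and 16. Signal is the authors' value per peak, and its unit and scaling between libraries are not given in the sources used here.

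Peaks at the far limit had signals below the median of their list. The most distant OsBZIP69 members, at 89 bp on chromosome 11 (19853054 to 19853254) and at 80 bp on chromosome 1 (10561119 to 10561319), had signals of 11 and 14. The nearest peaks past the limit, both on chromosome 1 (2484974 to 2485174 and 8547008 to 8547208), lay 115 and 118 bp away with signals of 12 and 15. The most distant OsBZIP77 members, at 95 bp on chromosome 11 (4430851 to 4431051) and at 94 bp on chromosome 2 (32895867 to 32896067), had signals of 19 and 11. The nearest past the limit lay 106 bp away on chromosome 4 (25436078 to 25436278) and chromosome 10 (16016627 to 16016827), with signals of 15 and 10.4.

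Displacement had no preferred side of the chromosome's numbering. The OsBZIP42 centre was to the right of 72 of the 146 OsBZIP69 members (49.3%, 41.0 to 57.7), against 50.1% over the whole OsBZIP69 list, and of 140 of the 280 OsBZIP77 members (50%, 44 to 56), against 49.8% over its list. The strand of any site was not known, so a direction relative to the bound sequence could not be read.

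The next question was whether both proteins shared the displaced position. They did at a minority of members. There the centres mostly agreed to the base, which was not particular to displaced peaks. Of the 656 aligned OsBZIP69 peaks shared within 10 bp, 639 agreed to the base. What the peak caller adds to such agreement was not tested. An OsBZIP77 centre lay within 10 bp of 64 displaced OsBZIP69 peaks, 43.8% (35.6 to 52.3), and 63 of those were at the same base. Over the whole OsBZIP69 list 65.0% had an OsBZIP77 centre within 10 bp and 63.4% at the same base. An OsBZIP69 centre lay within 10 bp of 65 displaced OsBZIP77 peaks, 23.2% (18.4 to 28.6), with 63 at the same base, against 34.9% and 34.1% over the whole OsBZIP77 list. Among aligned peaks the shares were 70.2% (67.2 to 73.2) for OsBZIP69 and 38.4% (36 to 40.7) for OsBZIP77. The interval for displaced peaks thus lay below that for aligned peaks in both lists.

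Taking the OsBZIP42 peak as the point of reference recounted the same peaks. Centres at the same base always have the same nearest OsBZIP42 centre, so their agreement here adds no further evidence. In all, 354 OsBZIP42 peaks were the nearest to a displaced peak of either protein and 69 to displaced peaks of both. These 69 gave 71 pairs of an OsBZIP69 and an OsBZIP77 centre. In 63 pairs the centres were at the same base and in 1 more they were 1 bp apart, with a median distance from OsBZIP42 of 22 bp over the 64. Of those, 61 lay 11 to 43 bp from the OsBZIP42 centre, 3 lay farther out, up to 64 bp, and 32 lay to its right. The other 7 pairs disagreed, with 2 on the same side of the OsBZIP42 centre and 5 on opposite sides of it.

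**Figure D2:**
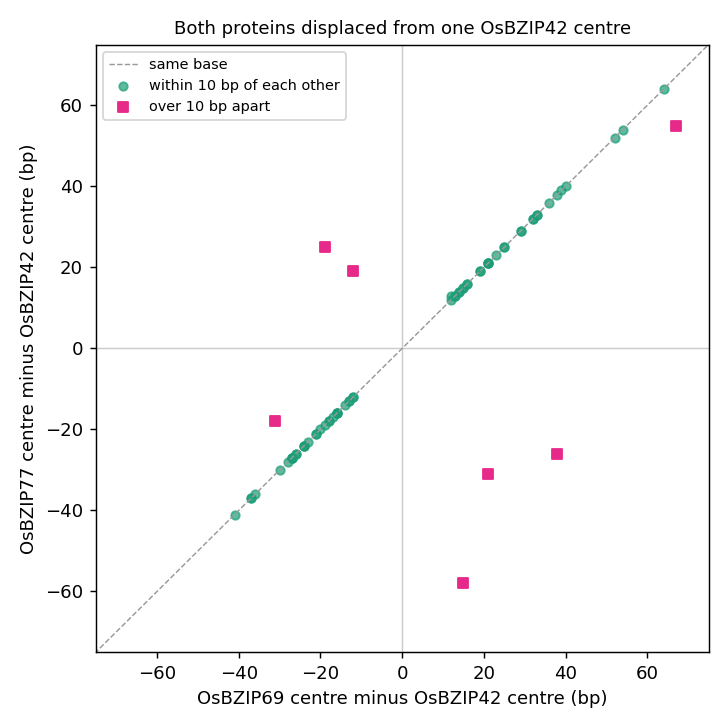
Signed distance in bp from the OsBZIP42 centre for OsBZIP69 (horizontal) and OsBZIP77 (vertical) in the 71 pairs displaced from the same OsBZIP42 centre. The 64 circles lie on or 1 bp off the dashed line of equal position, and the 7 squares do not.

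Where the partner was not at the displaced position, it was usually absent or aligned. OsBZIP77 was centred elsewhere within 100 bp of 30 displaced OsBZIP69 peaks (20.5%) and had no centre within 100 bp of 52 (35.6%). OsBZIP69 was centred elsewhere within 100 bp of 43 displaced OsBZIP77 peaks (15.4%) and had none within 100 bp of 172 (61.4%). Of those centred elsewhere, 23 of 30 and 34 of 43 were aligned to the same OsBZIP42 centre. A single OsBZIP42 peak could thus carry 1 protein on its centre and the other beside it. Counted from the OsBZIP42 peak, whatever other centres lay nearby, 24 OsBZIP69 members stood beside a centre on which OsBZIP77 was aligned, at 15 to 89 bp. Likewise 35 OsBZIP77 members stood beside a centre on which OsBZIP69 was aligned, at 11 to 88 bp. In the first case the median rank was 61.2% of the list for the displaced OsBZIP69 peaks, and 28.3% for the aligned OsBZIP77 peaks. In the converse case the displaced OsBZIP77 peaks had a median rank at 41.1% and the aligned OsBZIP69 peaks at 48.6%.

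The displaced peaks were spread over most of their own lists by signal, but did not include the strongest OsBZIP69 peaks. Rank 1 is the strongest peak, and a rank is given as a share of the list. The median rank was 58.5% (48.6 to 62.0) for OsBZIP69 members, against 48.6% (45.7 to 51.5) for aligned peaks, and 54.3% (49.9 to 63.8) for OsBZIP77 members, against 47.6% (45.4 to 49.9). In signal, displaced OsBZIP69 peaks ran from 10 to 114 with a median of 23, and aligned ones from 9.2 to 263 with a median of 26. Displaced OsBZIP77 peaks ran from 10 to 82 with a median of 21, and aligned ones from 10 to 99 with a median of 22.8. The intervals of the median ranks met or overlapped. The middle 50% of ranks ran from 29.2% to 80.3% for displaced and from 23.5% to 71.6% for aligned OsBZIP69 peaks. For OsBZIP77 it ran from 30.6% to 79.5% for displaced and from 24.6% to 71.5% for aligned peaks. A difference in strength was not tested. In successive steps of 20% down the OsBZIP69 list, from the strongest peaks, 10.9%, 12.8%, 11.8%, 14.5% and 15.8% of peaks were displaced. For OsBZIP77 these shares were 11.6%, 12.4%, 12.7%, 14.7% and 16.8%.

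Nearer displaced peaks were the stronger ones. OsBZIP69 members at 11 to 20 bp had a median signal of 28 and a median rank of 43.1%, those at 21 to 30 bp of 25 and 51.5%, those at 31 to 43 bp of 21.9 and 62.7%, and those at 44 to 100 bp of 16.2 and 82.5%. OsBZIP77 members had medians of 24 and 41.1%, 21 and 54.3%, 20.7 and 56.8%, and 16 and 79.5% in the same ranges. Sharing followed the same order: OsBZIP77 was at the same position for 53.1%, 52.3%, 35.3% and 15.8% of the OsBZIP69 members, and OsBZIP69 for 30.7%, 28.4%, 19% and 6.25% of the OsBZIP77 members. The farthest range held 19 OsBZIP69 and 48 OsBZIP77 members. Distance and signal moved together, and their parts in the sharing were not tested.

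The OsBZIP42 peaks beside which these peaks stood were among the strongest in that list. The nearest OsBZIP42 peak had a median rank of 2.79%, in its own list, for OsBZIP69 members (2.02 to 4.35), against 7.16% (6.66 to 8.17) for aligned OsBZIP69 peaks. For OsBZIP77 it was 5.31% (4.17 to 7.27), against 9.80% (9.27 to 10.4) for aligned peaks. In OsBZIP42 signal the medians were 138 against 88.9, and 104 against 74.9. The nearest OsBZIP42 peak was in the top 1% for 38 OsBZIP69 members, 26.0% (19.1 to 33.9), where the whole list had 12.6%, and for 58 OsBZIP77 members, 20.7% (16.1 to 25.9), where the whole list had 8.55%. It was in the top 5% for 88 members (60.3%), against 40.6% of the whole OsBZIP69 list, and for 134 members (47.9%), against 30.8% of the whole OsBZIP77 list. The OsBZIP42 rank was not part of the rule that chose the members.

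Read the other way, the displaced share varied with the rank of the OsBZIP42 peak. Among OsBZIP69 peaks within 100 bp of an OsBZIP42 centre, 27.1% (20 to 35.3) were displaced at the top 1% of OsBZIP42 peaks, 22.2% (14.5 to 31.7) between 1% and 2%, 13.4% (9.09 to 18.8) between 2% and 5% and 8.71% (5.47 to 13) between 5% and 10%. For OsBZIP77 the shares were 33.1% (26.2 to 40.6), 23.0% (16.3 to 30.9), 13.8% (10.2 to 18.1) and 10.3% (7.52 to 13.7). Below the top 10% the OsBZIP69 share stayed between 6.98% and 10.9%. The OsBZIP77 share stood at 9.58% and 10.5% down to the middle of the OsBZIP42 list and at 17.2% (11.1 to 24.9) in its lower 50%, where 22 of 128 peaks were displaced.

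**Figure D3:**
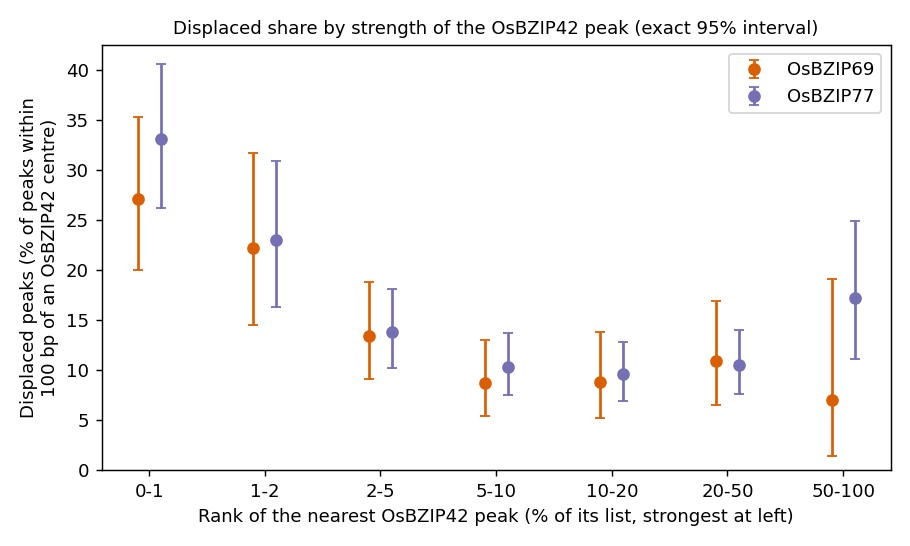
Share of OsBZIP69 and OsBZIP77 peaks that were displaced (vertical, % of peaks within 100 bp of an OsBZIP42 centre, exact 95% intervals) by rank class of the nearest OsBZIP42 peak (horizontal, % of its list). Both proteins have their highest share at the top 1% of OsBZIP42 peaks, 27.1% for OsBZIP69 and 33.1% for OsBZIP77.

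The strength of the OsBZIP42 peak also moved with sharing. Beside OsBZIP42 peaks in the top 5%, 52 of 88 displaced OsBZIP69 peaks (59.1%, 48.1 to 69.5) had OsBZIP77 at the same position, against 280 of 360 aligned peaks (77.8%, 73.1 to 82.0). Beside weaker OsBZIP42 peaks the counts were 12 of 58 displaced (20.7%, 11.2 to 33.4) and 376 of 574 aligned peaks (65.5%, 61.5 to 69.4). For OsBZIP77 they were 52 of 134 displaced (38.8%, 30.5 to 47.6) against 279 of 498 aligned peaks (56.0%, 51.5 to 60.4) in the top 5%, and 13 of 146 (8.90%, 4.83 to 14.7) against 375 of 1207 (31.1%, 28.5 to 33.8) below it. Displaced peaks were therefore shared at a lower rate than aligned ones in both classes and lists. Own strength moved with this: beside weaker OsBZIP42 peaks the median own rank was 73.7% for displaced and 56.4% for aligned OsBZIP69 peaks, and 74.7% against 54.3% for OsBZIP77.

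Sharing was also counted within the upper and lower 50% of each list. In the upper 50% of the OsBZIP69 list by signal, 42 of 62 displaced peaks (67.7%, 54.7 to 79.1) and 400 of 489 aligned peaks (81.8%, 78.1 to 85.1) were shared within 10 bp. In the lower 50% the counts were 22 of 84 (26.2%, 17.2 to 36.9) and 256 of 445 (57.5%, 52.8 to 62.2). For OsBZIP77 they were 46 of 128 (35.9%, 27.7 to 44.9) against 497 of 933 (53.3%, 50 to 56.5) in the upper 50%, and 19 of 152 (12.5%, 7.70 to 18.8) against 157 of 772 (20.3%, 17.6 to 23.4) in the lower. The intervals of displaced and aligned peaks overlapped in the upper 50% of OsBZIP69 and in the lower 50% of OsBZIP77, and did not in the other 2 comparisons. Own rank still varies within 50% of a list, and its part in the sharing was not tested. With a window of 100 bp, which also counts a partner on the OsBZIP42 centre, the shares were closer. An OsBZIP77 centre lay that near to 94 displaced OsBZIP69 peaks (64.4%, 56.0 to 72.1). Aligned OsBZIP69 peaks had 77.2% (74.4 to 79.9) and the whole list 73.6%. For OsBZIP77 it was 108 displaced peaks (38.6%, 32.8 to 44.5), against 41.4% (39.1 to 43.8) of aligned peaks and 39.5% of the whole list. The intervals of displaced and aligned peaks overlapped for OsBZIP77 and did not for OsBZIP69.

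**Figure D4:**
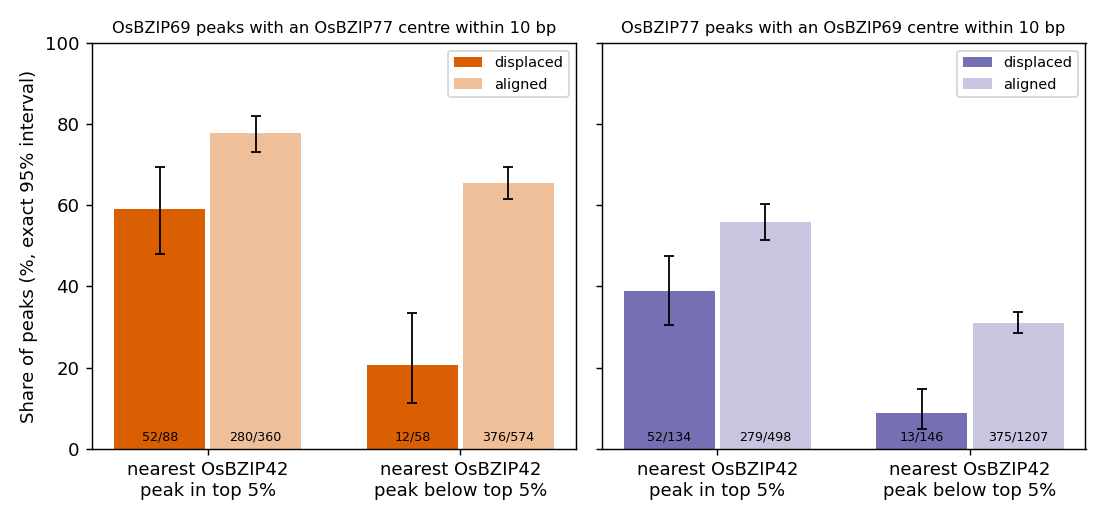
Share of displaced (dark) and aligned (pale) peaks with the other protein's centre within 10 bp (vertical, %, exact 95% intervals), split by whether the nearest OsBZIP42 peak was in the top 5% of its list, with counts at the foot of each bar. Displaced bars are lower in each pair, from 59.1% against 77.8% for OsBZIP69 in the top 5% to 8.90% against 31.1% for OsBZIP77 below it.

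The strongest displaced sites combined these patterns. At site A, on chromosome 5 from 27690492 to 27690692, OsBZIP69 had a signal of 114 (rank 27) and OsBZIP77 of 69 (rank 12) at the same base, 37 bp left of an OsBZIP42 centre with a signal of 256 (rank 142). It was the shared displaced position with the best worst rank. At site B, on chromosome 6 from 2962932 to 2963132, both proteins were centred 14 bp right of the OsBZIP42 centre ranked 47, where OsBZIP69 had a signal of 105, OsBZIP77 of 44 and OsBZIP42 of 342. The other 3 leading shared positions lay on chromosome 5 from 27751434 to 27751634 (32 bp away, OsBZIP69 signal 88 and OsBZIP77 signal 60), on chromosome 8 from 26599590 to 26599790 (33 bp, 88 and 46.2) and on chromosome 7 from 5894107 to 5894307 (13 bp, 79 and 46). All 5 were exact to the base, ranked at 7.36% or better for OsBZIP69 and 5% or better for OsBZIP77, and stood beside OsBZIP42 peaks in the top 1.68%.

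At other leading sites the proteins were centred apart. At site D, on chromosome 12, the strongest OsBZIP69 peak of all, signal 263, was centred 1 bp from the OsBZIP42 peak of rank 2, while OsBZIP77 (17464069 to 17464269, signal 82, rank 4) was centred 21 bp to the left. On chromosome 7 from 12926056 to 12926256 OsBZIP77, with a signal of 58, likewise lay 31 bp from an OsBZIP42 centre, and OsBZIP69, with its second highest signal of 224, lay 32 bp from the OsBZIP77 centre. On chromosome 3 the roles were exchanged: OsBZIP69 (33137440 to 33137640, signal 109) was 29 bp from the OsBZIP42 centre and OsBZIP77 (signal 65, rank 15) was 28 bp from the OsBZIP69 centre, on the side of OsBZIP42.

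Site E, on chromosome 5, held a shared position and an unshared one. OsBZIP69 (2080940 to 2081140, signal 114) stood 21 bp right of the strongest OsBZIP42 peak. OsBZIP77 had a centre at the same base with a signal of 21.5 and another 31 bp left of the OsBZIP42 centre with 25.1, and the OsBZIP42 peak itself, centred at 2081019, had 736.

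The remaining leading OsBZIP77 site stood nearest to the control. On chromosome 12 from 8532507 to 8532707 OsBZIP77 reached 69, tied at rank 12, 20 bp from an OsBZIP42 peak with a signal of 86, with no OsBZIP69 centre within 100 bp. Its −log10 q-value was 3.46, against 13.98 at site A, where OsBZIP77 had the same signal, and a HALO-GST centre lay 572 bp away. It was the only member of 280 with a HALO-GST centre within 1000 bp, against 0.146% of the whole OsBZIP77 list. For OsBZIP69 it was 0 of 146, where 3 counts of the total would be 2.05%, the limit such a count of 0 allows, against 0.181% of its list, and the nearest HALO-GST centre was 3161 bp away.

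**Figure D5:**
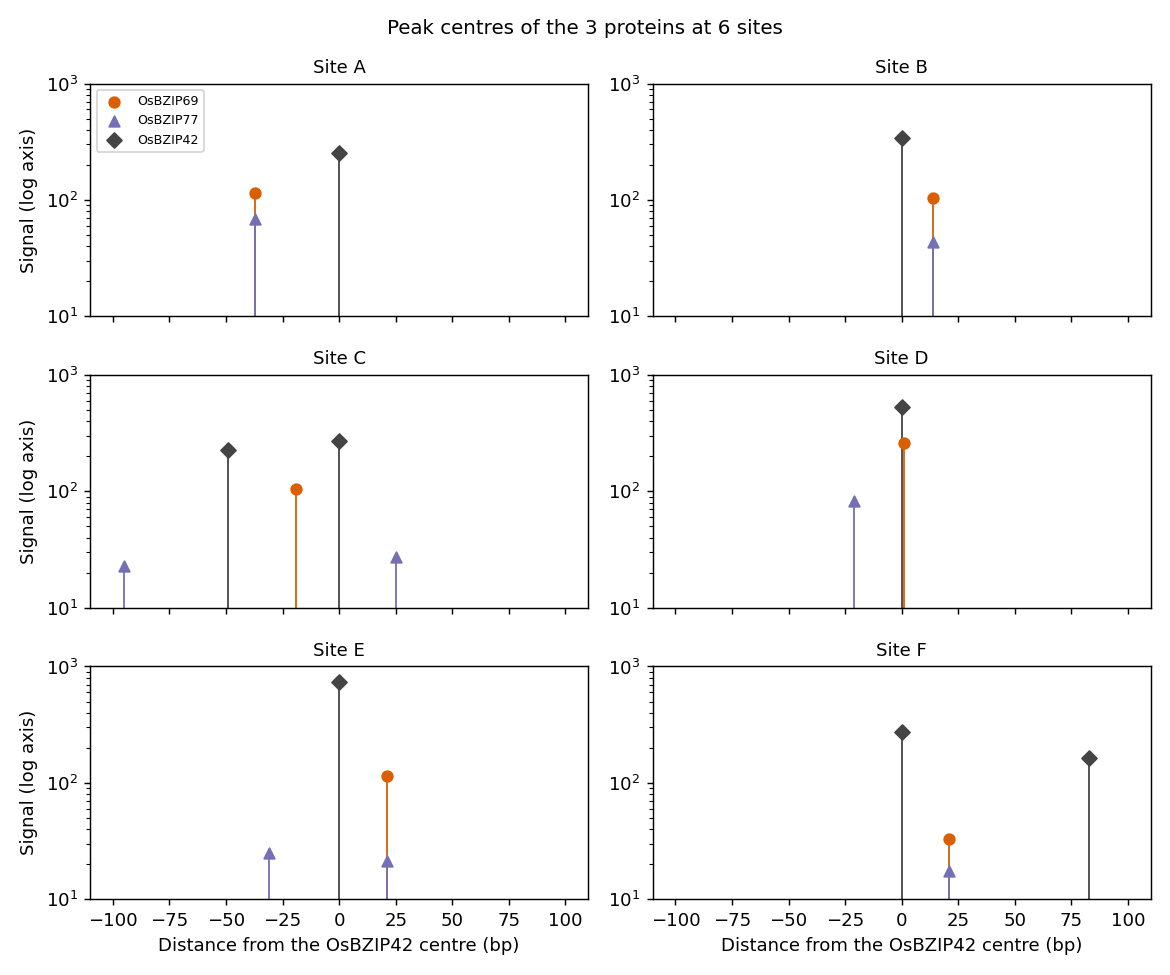
Peak centres of OsBZIP69 (circles), OsBZIP77 (triangles) and OsBZIP42 (diamonds) at 6 sites, with distance from the chosen OsBZIP42 centre in bp (horizontal) and the authors' signal on a log axis (vertical), whose scale is not matched between proteins. Sites A, B, E and F have OsBZIP69 and OsBZIP77 at the same displaced base, sites C and F lie between a pair of OsBZIP42 centres, site D has OsBZIP77 alone displaced, and at site E a further OsBZIP77 centre lies on the other side.

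Few displaced peaks lay between OsBZIP42 centres. An OsBZIP42 centre stood within 100 bp on each side of 6 OsBZIP69 members (4.11%, 1.52 to 8.73). The same held for 6 OsBZIP77 members (2.14%, 0.790 to 4.61). The whole lists had 6.68% and 5.05%, but 68 of those 74 OsBZIP69 peaks and 98 of those 104 OsBZIP77 peaks were aligned. An aligned peak's own OsBZIP42 centre could fill a side, so the whole-list shares do not measure the same thing. Whether displaced peaks lay between OsBZIP42 centres less often than other peaks was not tested. Including centres on the same side, 9 OsBZIP69 members (6.16%) and 19 OsBZIP77 members (6.79%) had 2 or more OsBZIP42 centres within 100 bp, where the whole lists had 15.4% and 12.0%. The other 137 and 261 members had a single OsBZIP42 centre in that reach. The more OsBZIP42 centres a place has, the less of it is left at 11 bp or more from all of them, so these counts are in part set by the rule.

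The 6 OsBZIP69 members between OsBZIP42 centres differed widely in strength. The strongest, at site C on chromosome 8 from 19487811 to 19488011, reached a signal of 105, 30 bp from an OsBZIP42 centre on its left with a signal of 229 and 19 bp from 1 on its right with a signal of 271. OsBZIP77 was not at that position, but had centres 44 bp to its right with a signal of 27.1 and farther to its left with 22.9, outside the OsBZIP42 pair on either side. The second, on chromosome 5 from 13708660 to 13708860 and of signal 59.1, lay 38 and 13 bp from OsBZIP42 centres with signals of 367 and 425. Others on chromosome 4 (7352790 to 7352990, signal 29) and chromosome 12 (4122558 to 4122758, signal 26) lay between weaker OsBZIP42 peaks with signals of 27.1 to 44.3, and had no OsBZIP77 centre within 100 bp. On chromosome 4 the peak stood 38 and 42 bp from its neighbours, close to the middle, and on chromosome 12 it stood 45 and 15 bp from them. The weakest, on chromosome 6 with its centre at 1469053 and a signal of 16.9, lay 82 and 64 bp from OsBZIP42 peaks of rank 6 and 75.

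A single place of this kind held both proteins. At site F, on chromosome 12 from 23428432 to 23428632, OsBZIP69 with a signal of 33 and OsBZIP77 with 17.4 were at the same base, 21 bp from an OsBZIP42 centre with a signal of 276 and 62 bp from another with 164. Of the other 5 OsBZIP77 members between OsBZIP42 centres, the strongest, on chromosome 12 from 25208492 to 25208692, reached 51. It stood 19 bp from an OsBZIP42 peak of rank 19, with OsBZIP69 20 bp away from it at a signal of 92, and 64 bp from a weak OsBZIP42 peak with a signal of 47.4. Those on chromosome 6 (3689580 to 3689780, signal 26), chromosome 2 (29112861 to 29113061, signal 23.7) and chromosome 3 (9573453 to 9573653, signal 17.8, and centre 17095571, signal 16) were 14 to 41 bp from the nearer OsBZIP42 centre and 61 to 89 bp from the farther. In all 6 OsBZIP77 cases the peak was thus nearer to 1 of the pair, never midway.

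Displaced peaks were low against the OsBZIP42 peak beside them, in unmatched units. This largely repeats the strength of those OsBZIP42 peaks. Median own signals were 23 for displaced against 26 for aligned OsBZIP69 peaks, and 21 against 22.8 for OsBZIP77. Median OsBZIP42 signals beside them were 138 against 88.9 and 104 against 74.9. The median ratio of signal to that of the nearest OsBZIP42 peak was 0.204 (0.179 to 0.241) for displaced and 0.343 (0.320 to 0.364) for aligned OsBZIP69 peaks, and 0.227 (0.204 to 0.252) against 0.321 (0.309 to 0.333) for OsBZIP77. The signal exceeded that of the OsBZIP42 peak at 3 OsBZIP69 members, where the whole list had 5.51%, and at 3 OsBZIP77 members, where the whole list had 1.89%. The OsBZIP69 cases were on chromosome 2 (18432949 to 18433149, ratio 1.48, with 2 OsBZIP42 centres to its right), chromosome 6 (4312870 to 4313070, ratio 1.41) and chromosome 12 (4305200 to 4305400, ratio 1.31). The OsBZIP77 cases were on chromosome 2 (29112861 to 29113061, ratio 1.30, described above as lying between OsBZIP42 centres), chromosome 9 (14441805 to 14442005, ratio 1.12) and chromosome 3 (33812795 to 33812995, ratio 1.04). None of these 6 had the other protein within 100 bp, and 5 of them stood beside OsBZIP42 peaks with signals of 9.9 to 18.7. The exception, on chromosome 6, had a signal of 45 against 32 for OsBZIP42 at 12 bp.

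A displaced peak was rarely an extra peak beside an aligned one of the same protein. An aligned OsBZIP69 peak sat on the same OsBZIP42 centre as 2 of the 146 displaced OsBZIP69 peaks, and an aligned OsBZIP77 peak on that of 1 of the 280 displaced OsBZIP77 peaks. Each OsBZIP69 member had an OsBZIP42 peak to itself, while 6 OsBZIP77 members stood in pairs at 3 OsBZIP42 peaks. Another peak of the same list lay within 100 bp of 3 OsBZIP69 members (2.05%, where the whole list had 3.25%) and of 8 OsBZIP77 members (2.86%, where the whole list had 1.36%). Peaks of a list were thus seldom so close in the whole lists either, and the rarity is not shown to be particular to displaced peaks.

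Members occurred on all 12 chromosomes. The displaced share of OsBZIP69 peaks ran from 8.99% on chromosome 4 (3.96 to 16.9) to 17.6% on chromosome 8 (10.2 to 27.4), and that of OsBZIP77 peaks from 8.94% on chromosome 10 (4.55 to 15.4) to 17.2% on chromosome 9 (10.3 to 26.1). The lowest and highest intervals overlapped in each list.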

How the data were processed

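The submitters' processing notes name Bowtie2 2.2.8 for alignment. Peaks were called with GEM, per the names of the deposited files, which also record a negative control for the 3 bZIP lists. Unlike the others, the OsBZIP77 file name does not mention reticulocyte lysate. No source used here states the genome build, so peaks were not assigned to genes and no sequence was read. The authors' signal per peak has no stated unit, and read depth is unknown. The deposited −log10 q-values begin at 2, a limit of 0.01. Deposited intervals span 201 bp around their centres and are given 1-based.

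Distances between centres were computed per chromosome. Shared means a centre within 10 bp, and between means an OsBZIP42 centre on each side within 100 bp. Ranks run by signal, with ties at their mean for shares of a list and at the best rank where a rank number is given. Shares have Clopper-Pearson and medians order-statistic 95% intervals (SciPy 1.17.1). With 1 library per protein no test was made. The distance code was tested on simulated lists. Sites named are those with the 5 highest signals, the 5 best shared ranks, the 5 strongest between OsBZIP42 centres (the sixth of each list was added), the 3 highest ratios and those next to the limits. The members and lists were chosen with earlier results of these data known.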

Additional observations from a re-analysis of the deposited data

How the results depend on the processing

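Of 62 alternatives for 14 results, 44 stayed within 1.5 times the main count or within the main 95% interval, and 6 were added after seeing the data. A lower limit of 21 bp left 97 OsBZIP69 members, with median distances of 31 bp for OsBZIP69 and 32.5 bp for OsBZIP77 and a median own rank of 63.4% for OsBZIP69. Restricting every list to its better 50% of q-values left 67 and 130 members. Bins of 5 bp held at most 18.5% and 16.4% of members and bins of 20 bp 63.7% and 60.4%, by construction. Sharing within 50 bp gave 61% and 35.4%. Beside OsBZIP42 peaks in the top 5% it was 59.1% and 38.8%. A reach of 200 bp put 8.90% of OsBZIP69 and 7.14% of OsBZIP77 members between OsBZIP42 centres, and a reach of 50 bp put 0 of the OsBZIP77 members there. Centres on any side gave 6.79% for OsBZIP77. No paired analysis was possible because there was a single library per protein, and no replicate could be left out. Unknown depth limits any statement on a partner missing from a displaced position.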

Other observations

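Some displaced sites lay near each other along the chromosome. On chromosome 5, 3 OsBZIP42 centres with displaced peaks fell within 60873 bp, from 27690629 to 27751502, and included 2 of the 5 best shared positions. On chromosome 7, 3 fell within 57054 bp from 5894194 to 5951248, and the first of them was another of those 5. The closest run of 3, on chromosome 9 from 14060655 to 14107649, spanned 46994 bp. These runs, in which neighbouring centres were at most 100 kb apart, were picked after the positions were seen and have no test. No matching count for aligned peaks is given, so such runs are not shown to be particular to displaced sites.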
